A study of Mus musculus with 24 samples.

Results

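Aicardi-Goutières syndrome is an inherited interferon disease in which nucleic acids of the body's own cells are sensed as if they were foreign, and the enzymes lost in it normally destroy, edit or limit such nucleic acids. The genes followed here are 9 mouse genes of this kind, out of the 54532 genes listed for each sample. They were taken by symbol, with earlier results of these data known. Of these, 5 are Aicardi-Goutières genes (*Samhd1*, *Adar*, *Rnaseh2a*, *Rnaseh2b* and *Rnaseh2c*) and 4 are nucleases that digest self-DNA (*Dnase2a*, *Dnase1l3*, *Pld3* and *Pld4*). All 9 were found, and all 9 passed the filter on low counts in each tissue.

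Poly(A) RNA was sequenced from 4 tissues (tongue, stomach, heart and muscle) of *Trex1*-knockout mice, either controls or given SN-011, a small-molecule antagonist of STING, and reads were counted per gene, with 3 samples in each of the 8 groups. Every mouse of the series lacked *Trex1*, a cytosolic DNA exonuclease that is itself an Aicardi-Goutières gene, so no sample had the wild-type genotype. The sample labels give SN-011 at 5 mg/kg on 3 days of each week for 4 weeks and call the controls untreated, whereas the study's methods give 10 mg/kg injected every day for 2 weeks into mice of 1 month of age, with Tween in PBS as the vehicle of the controls. The mice descend from crosses of heterozygous parents, the knockout is not restricted to a cell type, and no source used here says which tissues came from the same mouse.

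In the cGAS-STING pathway, DNA in the cytosol activates cGAS, whose product cGAMP binds STING, and STING then drives interferon and interferon-stimulated genes. The enzymes followed here act on DNA, on RNA or, for *Samhd1*, on DNA building blocks. They do so in the nucleus, the cytosol, the lysosome or outside the cell. Not all of them act upstream of cGAS: that of *Adar* limits an RNA sensor, and those of *Pld3* and *Pld4* limit Toll-like receptor signaling. Several of the genes are known to be interferon-induced in turn. These are whole tissues, so fewer cells of a type and less RNA per cell cannot be told apart in any value below.

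In GENCODE M21 on GRCm38, the Aicardi-Goutières genes lie as follows: *Samhd1* (ENSMUSG00000027639) at chr2:157097533-157135265 on the minus strand, *Adar* (ENSMUSG00000027951) at chr3:89715022-89753446 on the plus strand, *Rnaseh2a* (ENSMUSG00000052926) at chr8:84956610-84969767 on the minus strand, *Rnaseh2b* (ENSMUSG00000021932) at chr14:62292589-62372992 on the plus strand and *Rnaseh2c* (ENSMUSG00000024925) at chr19:5601873-5607019 on the plus strand. The nucleases are *Dnase2a* (ENSMUSG00000003812) at chr8:84908560-84922915 on the plus strand, *Dnase1l3* (ENSMUSG00000025279) at chr14:7964533-7994573 on the minus strand, *Pld3* (ENSMUSG00000003363) at chr7:27532000-27553218 on the minus strand and *Pld4* (ENSMUSG00000052160) at chr12:112760655-112768990 on the plus strand. All are protein-coding genes, and values are per gene, not per transcript.

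Total counts were 14253416 to 18443329 per sample, at which 3 counts, taken as the smallest amount that can be shown, were 0.163 to 0.210 CPM, the count scaled to a common library size (counting error only). Muscle SN-011 replicate 2 stood apart, with counts on 11546 genes against at least 19798 in every other sample. *Xist*, an X-linked gene of female cells, had 3060 to 13811 counts in control replicate 1 of each tissue and 0 to 20 in the other 20 samples, where the Y-linked *Ddx3y* had 0 to 3 and 825 to 1898 counts, so sex differed within the control groups and not within the SN-011 groups. Each tissue label had its own markers highest: the 5 heart muscle markers summed to 19851 to 34956 CPM in the heart against at most 208 elsewhere, the 5 skeletal muscle markers to at least 191721 CPM in the muscle, the 5 stomach gland markers to 4208 to 80127 CPM in the stomach and the 5 tongue epithelium keratins to 11073 to 50017 CPM in the tongue. Stomach gland markers were also counted in control replicates 2 and 3 of the heart (864 and 96.7 CPM), muscle (662 and 302 CPM) and tongue (1187 and 1228 CPM), against at most 29.6 CPM in the SN-011 samples of these tissues. Their part in the results below was not tested.

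SN-011 and control samples were compared tissue by tissue with the quasi-likelihood test of edgeR, with p-values adjusted over all genes tested. None of the 9 genes passed an adjusted p of 0.05 in any tissue, which makes 0 of 36 comparisons of a gene in a tissue. Of all genes tested, 0.848% passed in heart samples, 0.0141% in muscle, and 0% in both stomach and tongue. At an unadjusted p under 0.05, 4 of the 9 passed in the tongue, 2 in the stomach, 1 in the heart and 0 in the muscle, beside 12.5%, 24.6%, 22.4% and 14.8% of all genes tested. The lowest adjusted p of the 36 was 0.0758, for *Rnaseh2b* in the stomach.

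The fitted log2 fold change was below 0 in 24 of the 36 comparisons and above 0 in 12. Its median over the 9 genes was lowest for the stomach (-0.30), then heart (-0.14), tongue (-0.08) and muscle (-0.02), beside medians over all genes tested of 0.00, -0.01, -0.01 and -0.08. *Samhd1*, *Adar* and *Dnase1l3* were below 0 in all 4 tissues, whereas *Rnaseh2a*, *Rnaseh2c* and *Dnase2a* were below 0 in 1 tissue each. The controls are the same 3 samples for every gene of a tissue, so these directions are not independent of each other.

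The 3 SN-011 samples lay below all 3 control samples in 7 of the 36 comparisons and above all 3 in 4. Below the stomach controls were 3 of the 9 genes (*Samhd1*, *Rnaseh2b* and *Dnase1l3*), where 15.2% of all genes tested did so, and below the muscle controls 2 (*Adar* and *Dnase1l3*), where 19.8% did so. Below the heart controls was 1 gene (*Adar*, background 13.1%) and below the tongue controls 1 (*Samhd1*, background 8.38%). Above the controls were 2 genes in muscle (*Dnase2a* and *Pld3*, background 14.7%) and 2 in tongue (*Rnaseh2a* and *Rnaseh2b*, background 9.4%), with 0 in heart and stomach (backgrounds 14.1% and 17.8%). In a comparison of 3 samples with 3, the exact two-sided permutation test cannot give a p below 0.1, and all 11 of these comparisons gave 0.1.

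**Figure D1:**
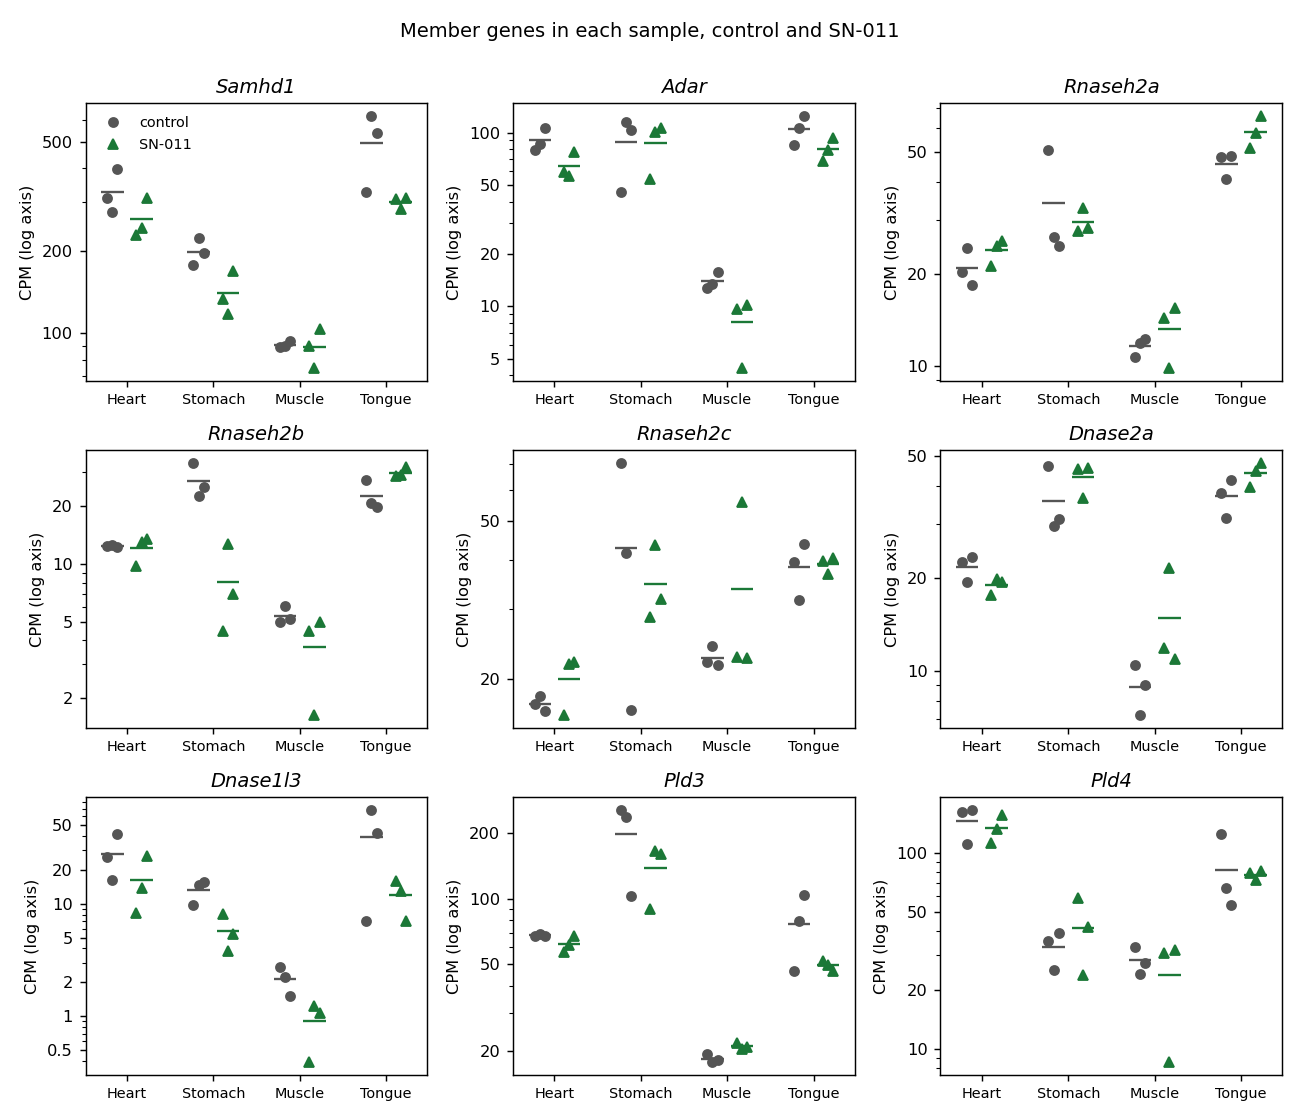
Abundance of the 9 genes in CPM (log axis) in each of the 24 samples, with control samples as grey circles, SN-011 samples as green triangles and the group mean as a line. *Rnaseh2b* in the stomach shows the widest gap between groups without overlap (22.5 to 33.6 CPM in controls, 4.48 to 12.7 CPM after SN-011), and muscle SN-011 replicate 2 lies apart from the other muscle samples for *Adar*, *Rnaseh2b*, *Rnaseh2c*, *Dnase2a* and *Pld4*.

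**Figure D2:**
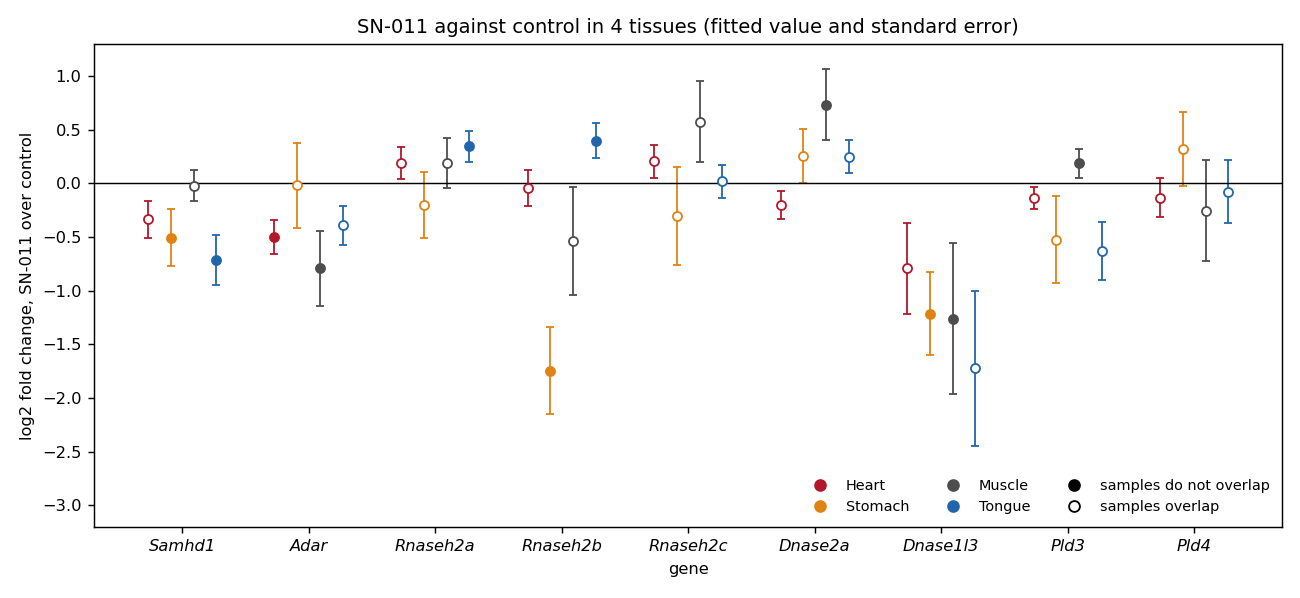
Fitted log2 fold change of SN-011 over control for each gene in the heart (red), stomach (orange), muscle (grey) and tongue (blue), with its standard error as the bar. Filled points mark comparisons in which the 3 SN-011 and 3 control samples do not overlap, and the lowest values are -1.74 for *Rnaseh2b* in the stomach and -1.72 for *Dnase1l3* in the tongue.

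*Samhd1* encodes a dNTP triphosphohydrolase that lowers the supply of DNA building blocks and restricts retroviruses. It was lower on average after SN-011 in all 4 tissues, by an amount near 0 in the muscle. In the tongue, *Samhd1* was 326, 619.8 and 536 CPM in the controls and 309, 284 and 312 CPM after SN-011. The groups did not overlap, although control replicate 1 stood closer to the SN-011 samples than to the other controls. The log2 fold change was -0.71 (SE 0.23, adjusted p 0.341), and it was -0.94 with an adjusted p of 0.00495 when control replicate 1 was left out, in a range of 0.00495 to 0.741 over all settings tried. That control is the tongue sample with high *Xist* counts. Without it 2135 of all genes passed in the tongue, against 0 with it.

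In the stomach, *Samhd1* was 177, 223 and 196 CPM in the controls and 133, 118 and 169 CPM after SN-011. These groups did not overlap either, and the log2 fold change was -0.51 (SE 0.26, adjusted p 0.271). The heart had 310.5, 276 and 397 CPM in the controls and 228, 242 and 310.0 CPM after SN-011, with overlap through the highest SN-011 sample (log2 fold change -0.33, SE 0.18, adjusted p 0.298). The muscle had 90.6 ± 2.79 CPM (SD, n = 3) in the controls and 89.2 ± 14.6 CPM after SN-011, so no difference was detectable there.

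*Adar* encodes the adenosine deaminase that edits adenosine to inosine in RNA duplexes and so keeps the RNA sensor MDA5 from binding them. The counts are per gene, so its short and its interferon-induced long protein form cannot be told apart here. In the heart, *Adar* was 79.4, 86.3 and 106 CPM in the controls and 59.2, 55.9 and 77.3 CPM after SN-011. Every SN-011 sample lay below every control, with a log2 fold change of -0.50 (SE 0.16, adjusted p 0.127). Without the filter on low counts the adjusted p was 0.0149, in a range of 0.0149 to 0.903 over all settings tried. Leaving out that filter let 1888 of all genes pass in the heart, against 137 with it.

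In the muscle, *Adar* was 12.7, 13.5 and 15.8 CPM in the controls and 9.67, 4.41 and 10.1 CPM after SN-011. The groups did not overlap, and the lowest value was that of replicate 2, the sample with counts on few genes (log2 fold change -0.79, SE 0.35, adjusted p 0.363). In the tongue the means were 105 ± 19.8 CPM and 80.3 ± 12.2 CPM, with overlap (log2 fold change -0.39, SE 0.18, adjusted p 0.422). The stomach controls ranged from 45.5 to 115 CPM and the SN-011 samples from 54.3 to 106 CPM, so the spread within each group was far wider than the difference between them (log2 fold change -0.02, SE 0.40). *Adar* shares 16.8% of its exon length with *Chrnb2* on the opposite strand, which had at most 97 counts in a sample.

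Likeness of pattern was read for each member. After each tissue's mean was taken from log2(CPM + 1), the 3 of 15829 genes that correlated best with *Adar* over the 24 samples were *Stat2* (Pearson r = 0.92, Spearman rho = 0.91), a transducer of the interferon signal, *Trim34a* (r = 0.89, rho = 0.86) and *Oas2* (r = 0.89, rho = 0.80), an interferon-induced sensor of RNA duplexes. For *Samhd1* they were *Slfn2* (r = 0.92, rho = 0.92), *Daxx* (r = 0.89, rho = 0.87) and *Aftph* (r = 0.88, rho = 0.88). These values describe 24 samples that share tissues and the treatment, and carry no test.

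Of 17 interferon-stimulated genes listed for comparison, all had a log2 fold change below 0 except 1 in the muscle, with medians of -1.07 (stomach), -0.88 (muscle), -0.80 (tongue) and -0.51 (heart). Of these, 1 passed the adjusted threshold, *Cxcl10* in the heart (log2 fold change -1.49, SE 0.24, adjusted p 0.0332). Their summed level was 4646 to 5676 CPM in heart controls and 3368 to 4731 CPM after SN-011, 3371 to 3876 and 1130 to 2093 CPM in the stomach, 1326 to 1745 and 752 to 1018 CPM in the muscle, and 3098 to 4564 and 2161 to 2653 CPM in the tongue. The stomach had the lowest median of this list, and *Adar* had its smallest difference there. That *Adar* log2 fold change was loosely estimated, at -0.02 with an SE of 0.40. It ranged from -0.35 to 0.24 in the stomach when 1 sample was left out. The part of interferon in the values of *Adar* was not tested.

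The promoters of *Samhd1* and *Adar* are shown because interferon-stimulated genes carry short motifs near their start sites: GAAANNGAA, the core spacing bound by interferon regulatory factors, and TTCNNNGAA, the core bound by STAT dimers. RefSeq windows of 300 bases (250 before and 50 after the start site, GRCm38.p6) were found for 7 of the 9 genes, with 3 windows for *Adar* and 1 for each of *Samhd1*, *Rnaseh2a*, *Rnaseh2c*, *Dnase2a*, *Pld3* and *Pld4*, and not for *Rnaseh2b* and *Dnase1l3*. Both strands were searched, and the matches, none of which overlap each other, are in capitals.
Samhd1, chr2:157135047-157135346, minus strand: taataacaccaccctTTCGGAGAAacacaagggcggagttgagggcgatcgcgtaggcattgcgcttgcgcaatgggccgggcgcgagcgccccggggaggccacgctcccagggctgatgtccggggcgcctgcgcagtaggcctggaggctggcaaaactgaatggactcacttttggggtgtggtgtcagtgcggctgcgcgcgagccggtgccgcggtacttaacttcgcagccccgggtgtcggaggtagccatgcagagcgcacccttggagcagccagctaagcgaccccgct
Adar, chr3:89714772-89715071, plus strand: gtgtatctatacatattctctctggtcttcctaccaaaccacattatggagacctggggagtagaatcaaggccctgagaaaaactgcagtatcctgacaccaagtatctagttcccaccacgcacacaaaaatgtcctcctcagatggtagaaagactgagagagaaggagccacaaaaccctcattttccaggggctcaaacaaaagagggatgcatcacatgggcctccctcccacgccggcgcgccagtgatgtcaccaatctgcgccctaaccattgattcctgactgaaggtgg
Adar, chr3:89730468-89730767, plus strand: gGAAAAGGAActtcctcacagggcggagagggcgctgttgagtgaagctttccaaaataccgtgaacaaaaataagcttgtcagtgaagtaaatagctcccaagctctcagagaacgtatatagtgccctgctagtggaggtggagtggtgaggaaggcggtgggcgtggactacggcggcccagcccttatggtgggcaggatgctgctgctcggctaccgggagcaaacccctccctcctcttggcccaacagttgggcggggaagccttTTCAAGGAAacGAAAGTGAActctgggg
The *Samhd1* window holds 1 match to TTCNNNGAA, whose first base lies at -235 from the start site. The first *Adar* window shown and a further one at chr3:89714988-89715287, not shown, hold no match to either motif in these letters, and the last one holds 2 matches to GAAANNGAA, at -249 and 33, and 1 to TTCNNNGAA at 22. Among the other members, *Pld3* holds GAAANNGAA at -247 and *Rnaseh2a* holds TTCNNNGAA at 16. Of 32851 such windows in the mouse genome, 8.56% hold GAAANNGAA and 8.30% hold TTCNNNGAA, so a match is a description of the letters and not a sign of binding.

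RNase H2 removes ribonucleotides left in DNA and degrades the RNA of RNA-DNA hybrids. It is a complex of the catalytic subunit A, encoded by *Rnaseh2a*, with the accessory subunits B and C, encoded by *Rnaseh2b* and *Rnaseh2c*. None of the 3 subunit genes passed the threshold in any tissue, and differences between them were not tested. In the stomach the log2 fold changes were -1.74 for *Rnaseh2b*, -0.30 for *Rnaseh2c* and -0.20 for *Rnaseh2a*.

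In the stomach, *Rnaseh2b* was 33.6, 22.5 and 25.0 CPM in the controls and 4.48, 12.7 and 7.0 CPM after SN-011. Every SN-011 sample lay below every control, and the means were 27.0 ± 5.79 CPM and 8.07 ± 4.23 CPM (SD, n = 3). The log2 fold change was -1.74 (SE 0.41, adjusted p 0.0758), which misses the threshold in a tissue where 0% of genes passed it. It passed with DESeq2 (-1.78, adjusted p 0.00249), edgeR's exact test (-1.74, adjusted p 0.00407), a joint fit of all 24 samples (-1.78, adjusted p 0.00399) and without the filter on low counts (-1.75, adjusted p 0.00689). With these settings, in the same order, 2389, 1835, 2738 and 1368 of all genes passed in the stomach too. Over all settings the log2 fold change of *Rnaseh2b* ranged from -2.25 to -1.45, with adjusted p values of 0.00249 to 0.294.

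In the tongue, *Rnaseh2b* was 27.4, 20.8 and 19.7 CPM in the controls and 28.8, 29.0 and 31.9 CPM after SN-011. The groups did not overlap and the order was the reverse of that in the stomach, with a log2 fold change of 0.40 (SE 0.16, adjusted p 0.393). Without control replicate 1, the control nearest to the SN-011 samples, it was 0.56 with an adjusted p of 0.0352, in a range of 0.0352 to 0.968 over all settings. Of all genes, 2135 passed in the tongue without that control. The heart had 12.4 ± 0.192 CPM and 12.1 ± 1.97 CPM (log2 fold change -0.04, SE 0.17), and the muscle 5.39 ± 0.586 CPM and 3.70 ± 1.81 CPM, where replicate 2 after SN-011 was lowest at 1.63 CPM (log2 fold change -0.54, SE 0.50, adjusted p 0.68).

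The effect of SN-011 was then compared among the 4 tissues in a joint fit. None of the 9 genes passed an adjusted p of 0.05, where 2.32% of 19731 genes did, and *Rnaseh2b* had the lowest adjusted p of the 9 (F = 6.64, adjusted p 0.0724). The stomach and tongue were compared alone after the values of *Rnaseh2b* had been seen: its effect was 2.18 lower on the log2 scale in the stomach (difference -2.18, SE 0.52, adjusted p 0.0491), in a contrast that 0.821% of genes passed. This is at the edge of the threshold, since 21 of 27 other settings gave an adjusted p above 0.05 (0.00806 to 0.165 over the 27) with a difference of -2.68 to -1.88.

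Marker sums were read beside *Rnaseh2b* in the stomach samples. The 5 stomach gland markers were all below 0 (median log2 fold change -1.07, 0 past the threshold) and summed to 80127, 38465 and 22233 CPM in controls 1 to 3 against 4208, 27753 and 19382 CPM in SN-011 samples 1 to 3, with overlap. The 5 keratins of squamous epithelium, fixed as tongue markers, were all above 0 (median 2.21, 0 past the threshold) and summed to 89.1 to 202 CPM in controls and 361 to 1175 CPM after SN-011, without overlap. The 12 genes of dividing cells were all below 0 (median -0.91, 0 past the threshold) and summed to 472 to 595 CPM in controls and 184 to 374 CPM after SN-011, again without overlap. In the tongue 6 of these 12 were below 0 (median 0.16), and in the muscle 9 of the 11 tested (median -0.90). In the heart, as in the stomach, all 12 were below 0 (median -0.85). There 2 of them passed the threshold, *Top2a* (log2 fold change -1.02, edgeR adjusted p 0.0275) and *Mcm2* (adjusted p 0.0402). Of all genes tested, 0.848% passed in the heart and 0% in the stomach, so counts past the threshold are not alike between these tissues. None of the 3 lists had a marker at 0 in the stomach, and their part in the difference of *Rnaseh2b* was not tested. The 3 genes most like *Rnaseh2b* over the 24 samples were *Metap1* (r = 0.92, rho = 0.77), *Rras2* (r = 0.91, rho = 0.82) and *Mcmbp* (r = 0.91, rho = 0.71).

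**Figure D3:**
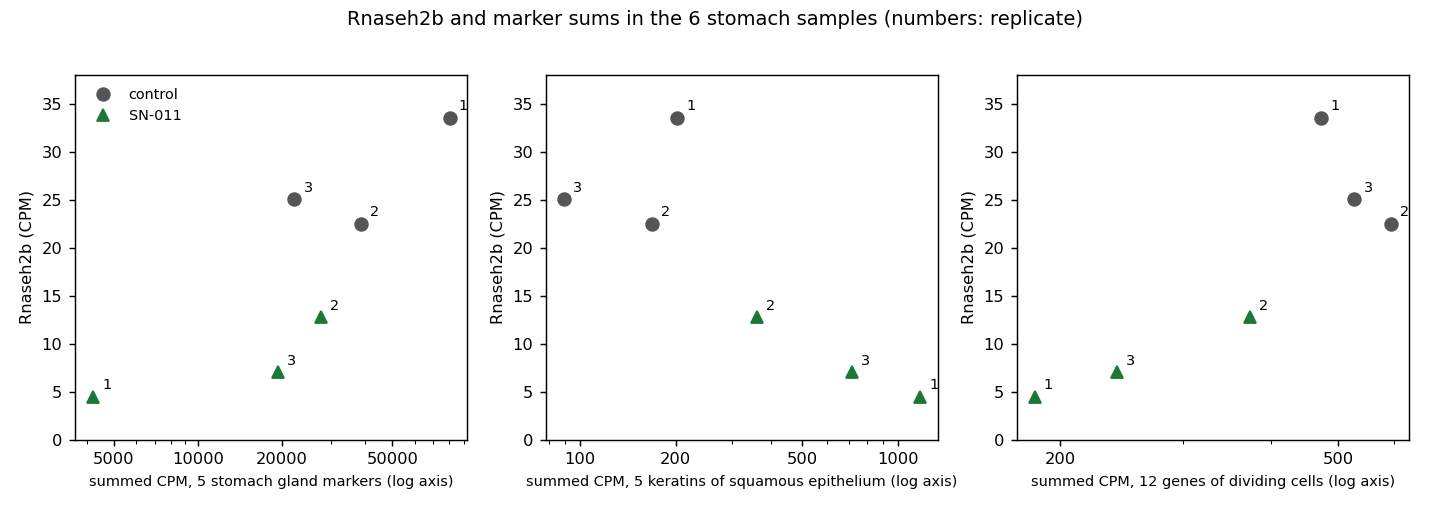
*Rnaseh2b* in CPM (linear axis) against the summed CPM (log axis) of stomach gland markers, squamous keratins and genes of dividing cells in the 6 stomach samples, with controls as grey circles, SN-011 as green triangles and replicate numbers beside the points. The SN-011 samples, all at or below 12.7 CPM of *Rnaseh2b*, have more keratin and less of the dividing-cell genes than every control, whereas the gland markers overlap between the groups.

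*Rnaseh2a* was higher in the tongue after SN-011 without overlap, at 48.4, 40.8 and 48.5 CPM in the controls and 51.6, 58.0 and 65.8 CPM after SN-011 (log2 fold change 0.35, SE 0.15, adjusted p 0.395). Its groups overlapped elsewhere, with log2 fold changes of 0.19 in both heart and muscle and -0.20 in the stomach. There, control replicate 1 at 50.9 CPM stood well above the other 5 samples, which ranged from 24.8 to 33.0 CPM, and leaving it out turned the log2 fold change to 0.18. *Rnaseh2a* lies 33694 bases from *Dnase2a* on chromosome 8, on the opposite strand, and shares 5.04% of its exon length with *Prdx2*, an abundant gene of the opposite strand with 1831 to 5593 counts per sample.

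*Rnaseh2c* overlapped between groups in all 4 tissues, with log2 fold changes of -0.30 (stomach), 0.02 (tongue), 0.21 (heart) and 0.58 (muscle) and adjusted p values of 0.457 to 0.961. The stomach value turned to 0.22 without control replicate 1. In the muscle, SN-011 replicate 2 had 56.0 CPM against 21.7 to 24.2 CPM in the other 5 samples, so the difference there rests on 1 sample. Stomach controls spread over 70.3, 41.7 and 16.7 CPM. *Rnaseh2c* shares 24.8% of its exon length with *Kat5* on the opposite strand, and the sources used here do not say whether strand was used in counting.

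The DNases digest DNA outside the nucleus: *Dnase2a* encodes the acid DNase of lysosomes, which clears DNA of engulfed cells, and *Dnase1l3* a secreted DNase that digests chromatin in microparticles and is made mainly by dendritic cells and macrophages. *Dnase1l3* had the lowest log2 fold change of the 9 genes in the heart, muscle and tongue, and it was lower on average after SN-011 in every tissue, with changes of the mean from -42.2% (heart) to -69.7% (tongue), without passing the adjusted threshold.

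In the stomach, *Dnase1l3* was 9.76, 14.8 and 15.5 CPM in the controls and 8.07, 3.76 and 5.40 CPM after SN-011. The groups did not overlap, with a log2 fold change of -1.21 (SE 0.39, adjusted p 0.121). DESeq2, with which 2389 of all stomach genes passed, gave -1.23 with an adjusted p of 0.0267, the lowest in a range up to 0.366. In the muscle it was 2.74, 2.21 and 1.51 CPM in the controls and 0.389, 1.22 and 1.08 CPM after SN-011. These groups did not overlap, at levels a few times the floor of this depth (log2 fold change -1.26, SE 0.70, adjusted p 0.472).

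In the tongue, *Dnase1l3* was 7.04, 68.2 and 42.8 CPM in the controls and 15.9, 12.9 and 6.97 CPM after SN-011. Control replicate 1 lay among the SN-011 samples, and the other controls were far above them. The 5 tongue keratins also had controls 2 and 3 above every SN-011 sample and control 1 not above them (11073, 35228 and 50017 CPM in controls 1 to 3, 13931 to 21314 CPM after SN-011), and their part in the tongue values of *Dnase1l3*, *Pld3* and *Samhd1* was not tested. For *Dnase1l3* the log2 fold change was -1.72 (SE 0.72, adjusted p 0.395), and without control replicate 1 it was -2.22 with an adjusted p of 0.00634, in a range of 0.00634 to 0.762. Of all genes, 2135 passed in the tongue without that control. In the heart, *Dnase1l3* was 25.9, 16.2 and 41.6 CPM in the controls and 8.33, 13.7 and 26.4 CPM after SN-011, with overlap (log2 fold change -0.79, SE 0.43, adjusted p 0.309). Without the filter on low counts the adjusted p in the heart was 0.00898, in a range up to 0.925, and 1888 of all genes passed.

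Markers of the cell types known to make *Dnase1l3* were read beside it. The 8 dendritic cell markers summed to 58.0 to 110 CPM in heart controls and 53.8 to 75.6 CPM after SN-011, to 29.7 to 34.3 and 17.0 to 40.7 CPM in the stomach, to 23.4 to 27.0 and 19.4 to 37.5 CPM in the muscle, and to 35.5 to 57.3 and 24.4 to 44.9 CPM in the tongue, overlapping in each tissue. The 12 macrophage markers overlapped in the heart (2101 to 2696 and 1977 to 2704 CPM), stomach (482 to 740 and 392 to 1097 CPM), muscle (975 to 1063 and 863 to 1344 CPM) and tongue (850 to 2052 and 1202 to 1533 CPM). No marker of these lists was at 0 in a group, and 0 passed the threshold in any tissue. Of the dendritic cell markers tested, 5 of 7 were below 0 in the heart (median log2 fold change -0.38) and 5 of 7 in the tongue (-0.04). In the muscle 5 of 6 were below 0 (-0.34), and in the stomach 2 of 7 (median 0.31). *Xcr1*, a receptor of cross-presenting dendritic cells, and *Itgax*, the integrin CD11c, both named after their values were seen, were below 0 in all 4 tissues, with log2 fold changes of -1.97 to -1.20 and -1.24 to -0.22. In the stomach they were the only markers of the list below 0, so they do not stand for the list. The part of these cells in the values of *Dnase1l3* was not tested. Tongue control replicate 1, lowest in *Dnase1l3* among the tongue controls, had the highest macrophage sum of all tongue samples. The genes most like *Dnase1l3* over the 24 samples were *Tapbpl* (r = 0.83, rho = 0.82), *Cxcl9* (r = 0.81, rho = 0.81) and *Rarres1* (r = 0.80, rho = 0.77), of which *Cxcl9* is an interferon-induced chemokine.

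*Dnase2a* was higher in the muscle after SN-011 without overlap, at 10.5, 7.19 and 9.03 CPM in the controls and 11.9, 21.7 and 10.9 CPM after SN-011 (log2 fold change 0.73, SE 0.33, adjusted p 0.37). The highest value was again that of SN-011 replicate 2, and the other SN-011 samples lay just above the highest control. Elsewhere its groups overlapped, with log2 fold changes of -0.20 (heart), 0.25 (tongue) and 0.26 (stomach). *Dnase2a* shares 30.0% of its exon length with *Mast1* on the opposite strand, which had at most 155 counts in a sample.

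*Pld3* and *Pld4* encode exonucleases of endosomes and lysosomes that shorten single-stranded DNA and RNA and so limit Toll-like receptor signaling. In the tongue, *Pld3* was 46.7, 79.0 and 104 CPM in the controls and 52.0, 49.5 and 46.8 CPM after SN-011. Control replicate 1 lay below all SN-011 samples and the other controls above them (log2 fold change -0.63, SE 0.27, adjusted p 0.4). Without that control it was -0.89 with an adjusted p of 0.0096, in a range up to 0.762, and 2135 of all genes passed. In the stomach, control replicates 1 to 3 had 256, 239 and 103 CPM and SN-011 samples 90.1, 165 and 160.0 CPM, which overlap (log2 fold change -0.53, SE 0.41, adjusted p 0.452). In the muscle, all 3 SN-011 samples lay above the controls by a small margin, at 20.5 to 21.7 CPM against 17.8 to 19.3 CPM (log2 fold change 0.19, SE 0.14, adjusted p 0.59). The heart had 68.2 ± 1.07 CPM and 62.0 ± 5.21 CPM.

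*Pld4*, which is made mainly by myeloid cells, plasmacytoid dendritic cells and B cells, overlapped between groups in all 4 tissues. Heart means were 146 ± 30.7 CPM in controls and 133 ± 21.7 CPM after SN-011. Tongue means were 81.8 ± 37.5 and 77.4 ± 4.39 CPM, stomach means 33.3 ± 7.18 and 41.6 ± 17.5 CPM, and muscle means 28.3 ± 4.56 and 23.7 ± 13.1 CPM. The log2 fold changes lay between -0.25 and 0.32, with adjusted p values of 0.595 to 0.923, and 3 of the 4 turned sign when 1 sample was left out: the muscle value became 0.14 without SN-011 replicate 2, the tongue value 0.36 without control replicate 1 and the stomach value -0.01 without SN-011 replicate 1. In the tongue, control replicate 1 had the most (125 CPM), the reverse of its place for *Samhd1*, *Dnase1l3* and *Pld3*, and in the muscle SN-011 replicate 2 had the least (8.57 CPM).

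Markers of plasmacytoid dendritic cells and B cells were also read beside *Pld4*, with those of T cells for comparison. Of the 7 plasmacytoid dendritic cell markers, all that were tested were below 0 in each tissue (6 in heart, median -1.01, 7 in stomach, median -0.49, 3 in muscle, median -2.53, and 6 in tongue, median -1.37), with 0 past the threshold. Their summed levels overlapped between groups in every tissue (for the heart 69.2 to 193 CPM in controls and 52.3 to 87.9 CPM after SN-011, for the tongue 290.0 to 1132 and 366 to 462 CPM). *Siglech*, the most specific of them, had means of at most 3.01 CPM in any group, and most of the sum in the tongue was *Ly6d*, a gene that squamous epithelium also expresses. Medians of the 6 B cell markers were -0.82 (heart), -0.77 (stomach), -1.52 (muscle) and -0.78 (tongue), and of the 6 T cell markers -0.48, -0.52, -0.11 and -0.37 in the same order, with 0 past the threshold in any tissue. Summed B cell markers did not overlap in the stomach, at 299.9 to 690.3 CPM in controls and 162.0 to 226.0 CPM after SN-011. They overlapped in the other tissues, and the T cell sums overlapped in every tissue. The part of these cells in the values of *Pld4* was not tested. The genes most like *Pld4* were *Ccdc80* (r = 0.92, rho = 0.80), *Apbb1ip* (r = 0.92, rho = 0.89) and *A530040E14Rik* (r = 0.92, rho = 0.90).

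For the members not yet given, the genes most like *Pld3* were *Gipc1*, *Mapk3* and *Chmp4b* (r = 0.92 to 0.93), those most like *Rnaseh2a* were *Mri1*, *Pet100* and *Puf60* (r = 0.85 to 0.87), those most like *Rnaseh2c* were *Aurkaip1*, *Ap2s1* and *Arf5* (r = 0.95 to 0.96), and those most like *Dnase2a* were *Ldlrad3*, *Mir99ahg* and *Gm44291* (r = 0.86 to 0.87). Spearman rho was lower than r for each of these 12, at 0.73 (*Puf60*) to 0.89 (*Gipc1*). None of the 12 is in the list of interferon-stimulated genes, but that list also lacks *Oas2* and *Cxcl9*, so absence from it does not set these members apart.

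A further 20 genes of nucleic acid clearance were listed for comparison, among them *Trex1*, *Ifih1*, *Lsm11*, *Rnaseh1*, other DNases and the RNA decay factors *Skiv2l* and *Ttc37*. Of these, 15 were tested in muscle and 17 in each other tissue, and 0 passed the adjusted threshold in any tissue, with 2 to 4 at an unadjusted p under 0.05. Their median log2 fold changes were -0.27 (stomach), -0.11 (heart), -0.06 (tongue) and 0.01 (muscle). *Ifih1*, named after its values were seen, encodes the RNA sensor MDA5 and is an Aicardi-Goutières gene through gain of function. It was lower on average in all 4 tissues, with log2 fold changes of -1.59 in the stomach (edgeR adjusted p 0.0672), -1.24 in muscle (adjusted p 0.269), -0.90 in tongue (adjusted p 0.263) and -0.63 in heart (adjusted p 0.0622). *Trex1* was listed at 0 in all 24 samples, which is no check of the genotype, since it overlaps *Atrip* and shared reads may have been left uncounted.

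More of the 9 genes passed the threshold between tissues than after SN-011, and so did more of all genes tested. The fits also differ in their number of samples, so this is no trait of the 9 genes. In a joint fit of the 12 controls, 7 of the 9 genes passed an adjusted p of 0.05 between muscle and tongue (43.3% of the 18301 genes tested did), all 7 lower in the muscle. For heart against muscle 6 passed (38.9% of all genes), for heart against stomach 5 (46.7%), for stomach against muscle 5 (56.7%), for heart against tongue 4 (32.3%) and for stomach against tongue 3 (40.6%). These counts depended on single control numbers: when the controls of number 2 were left out of all tissues, 0 of the 9 passed for heart against tongue, 0 for stomach against tongue and 2 for heart against stomach, and when those of number 3 were left out, 0 passed for heart against tongue.

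Levels below are CPM per kilobase of exon in controls, where the exon length is the union of all transcripts and so understates genes with long rare exons. *Samhd1* was highest in the tongue (45.4 ± 14.1, SD, n = 3), then in the heart (32.2 ± 6.58), stomach (17.7 ± 1.78) and muscle (16.7 ± 0.80). Tongue and heart were not told apart (adjusted p 0.155) and nor were stomach and muscle (adjusted p 0.808), whereas the heart was above the stomach (log2 difference 0.87, SE 0.25, adjusted p 0.014). The tongue was 2.72 times the muscle (log2 difference 1.44, SE 0.25, adjusted p 0.00081). *Adar* was alike in the tongue (10.9 ± 2.07), heart (10.02 ± 1.63) and stomach (8.76 ± 3.57) within the error, with adjusted p values of 0.783 and 0.616 between neighbours, and the stomach was above the muscle (2.91 ± 0.38) by 1.59 on the log2 scale (SE 0.30, adjusted p 0.00075).

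Among the nucleases, *Pld3* was highest in the stomach (55.9 ± 24.3), followed by the tongue (22.0 ± 8.29), heart (20.9 ± 0.26) and muscle (10.6 ± 0.30). The stomach was above the tongue (log2 difference 1.34, SE 0.34, adjusted p 0.00797) and the heart above the muscle (0.98, SE 0.34, adjusted p 0.0387), of which the second had an adjusted p of 0.0568 when same-numbered samples were taken as a block. *Pld4* had another order, with the heart highest (37.9 ± 8.35), then the tongue (19.8 ± 9.0), muscle (13.8 ± 1.99) and stomach (7.84 ± 1.70). The heart was above the tongue (log2 difference 0.94, SE 0.30, adjusted p 0.0339) and the muscle above the stomach (0.81, SE 0.30, adjusted p 0.0383). Of the differences between neighbours that passed, for these genes and the others, only that of *Adar* between stomach and muscle still passed whichever control number was left out, whereas the largest differences of *Pld3* (stomach over muscle, 2.39, SE 0.35) and *Pld4* (heart over stomach, 2.27, SE 0.32) passed each time, with adjusted p values of at most 0.0116 and 0.00739. Macrophage markers had the heart highest too, at 2101 to 2696 CPM in controls against 482 to 740 CPM in the stomach.

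*Dnase1l3* spanned the widest range over tissues, with 6.43 ± 5.03 in the tongue, 4.88 ± 2.30 in the heart, 2.10 ± 0.44 in the stomach and 0.70 ± 0.19 in the muscle. No neighbours in this order passed the threshold (adjusted p 0.646, 0.123 and 0.0536), although stomach over muscle passed with DESeq2 size factors (0.0463), without the filter on low counts (0.00942), with DESeq2 (0.0167) and without the controls of number 1 (0.0109), in a range of 0.00942 to 0.27 over all settings. The tongue was 9.13 times the muscle (log2 difference 3.19, SE 0.67, adjusted p 0.00242, and 0.0554 without the controls of number 2). *Dnase2a* was 5.76 ± 0.80 in the tongue, 5.43 ± 1.57 in the stomach, 3.65 ± 0.39 in the heart and 2.78 ± 0.48 in the muscle, with no neighbours told apart in this fit. The stomach and heart were at its edge (log2 difference 0.57, SE 0.23, adjusted p 0.0571), and passed with DESeq2 (adjusted p 0.0293), DESeq2 size factors (0.039) and the replicate number as a block (0.0337), in a range of 0.0293 to 0.289 over all settings. The ends of the order passed (tongue over muscle 1.05, SE 0.23, adjusted p 0.00328, and 0.0513 without the controls of number 3).

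The RNase H2 subunit genes differed in level in the same direction in every tissue: in all 12 controls, *Rnaseh2b* was below *Rnaseh2a* and *Rnaseh2c* per kilobase. Before division by length, the order was the same in every control except stomach control replicate 3. That sample had 468 counts of *Rnaseh2b*, 464 of *Rnaseh2a* and 312 of *Rnaseh2c*. The size of the ratios below rests on the exon lengths used (6243 bases for *Rnaseh2b*, 3509 for *Rnaseh2a* and 1715 for *Rnaseh2c*). The ratio of *Rnaseh2c* to *Rnaseh2b* was 5.08 ± 0.14 in the heart, 6.29 ± 1.56 in the tongue, 5.59 ± 2.78 in the stomach and 15.4 ± 0.81 in the muscle, where its 3 values (14.5 to 16.1) lay above all of the other 9 (2.43 to 8.09). The ratio of *Rnaseh2a* to *Rnaseh2b* was 3.87 ± 0.37 in the muscle, 3.67 ± 0.64 in the tongue, 3.01 ± 0.40 in the heart and 2.19 ± 0.47 in the stomach. *Rnaseh2c* was itself highest in the muscle (22.3 ± 1.45) and lowest in the heart (9.07 ± 0.26, log2 difference 1.296, SE 0.39, adjusted p 0.0201, and 0.21 without the controls of number 2), whereas *Rnaseh2b* was lowest in the muscle (1.46 ± 0.17) and highest in the stomach (3.54 ± 0.85, log2 difference 1.28, SE 0.22, adjusted p 0.00046). *Rnaseh2a* was highest in the tongue (10.99 ± 1.02) and lowest in the heart (5.37 ± 0.71, log2 difference 1.03, SE 0.27, adjusted p 0.0119, and 0.105 without the controls of number 3), with no neighbours in its order told apart.

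**Figure D4:**
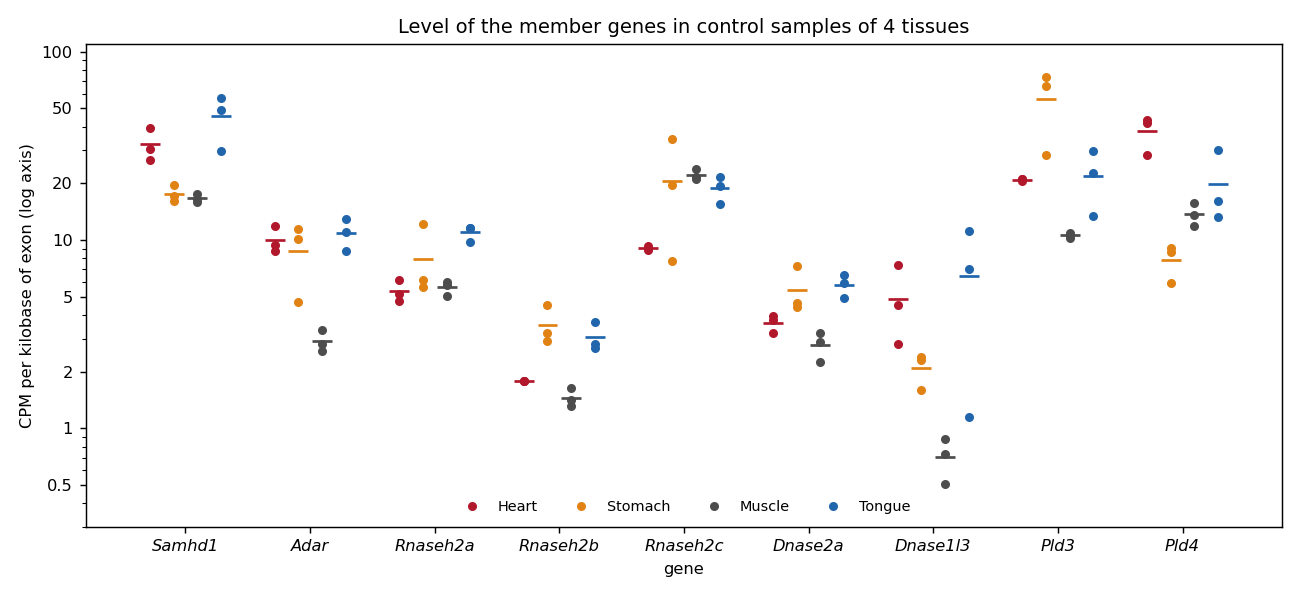
Level of each gene in the control samples in CPM per kilobase of exon (log axis), with a point for each sample and a line for the mean of the heart (red), stomach (orange), muscle (grey) and tongue (blue). The gene with the highest mean differs by tissue: *Samhd1* in the tongue (45.4), *Pld4* in the heart (37.9), *Pld3* in the stomach (55.9) and *Rnaseh2c* in the muscle (22.3).

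The place of the 9 genes among all genes also depended on the tissue. Per kilobase, *Samhd1* was above 83.8% to 94.4% of 18294 genes, *Pld3* above 77.2% to 95.5% and *Pld4* above 73.4% to 94.2%. *Rnaseh2b* was above 40.5% to 56.4% and *Dnase1l3* above 29.8% to 67.6%, the lowest place of any member, in the muscle.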

How the data were processed

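Poly(A) RNA of 24 tissue samples was sequenced in pairs. The authors deposited raw counts of reads per gene, without normalization, for 54532 genes; the submitters' processing notes name HISAT2, HTSeq and mm10, and the methods Trimmomatic, hisat2 and featureCounts on uniquely mapped pairs. Versions, and whether strand was used in counting, are not given in the sources used here. Symbols, positions and exon lengths come from GENCODE M21 of GRCm38, which holds 54495 of the identifiers.

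Tissues were fitted separately with the quasi-likelihood test of edgeR (version 4.0.16 under R 4.3.3). Genes were kept by filterByExpr at its minimum count of 10 and minimum total of 15, libraries were scaled by TMM, and 0.125 served as prior count. Benjamini-Hochberg adjustment ran over all genes tested, at a threshold of 0.05. CPM use TMM-scaled library sizes of each tissue, and marker sums those of all 24 samples. Tissues were compared in 1 fit of the 12 controls, and effects of SN-011 among tissues in 1 fit of 24 samples. The standard error is the fold change divided by the root of F. Labels number the samples of a group and do not say which mouse each came from. Where samples of a group shared a mouse, p-values measure technical spread. Where tissues shared mice, the fits across tissues leave out that pairing, except with the replicate number as a block.

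All 9 genes are named; the members and all gene lists (5 Aicardi-Goutières genes, 4 nucleases, 20 other clearance genes, 17 interferon-stimulated genes and markers of macrophages, dendritic cells, plasmacytoid dendritic cells, B cells, T cells, dividing cells and the 4 tissues) were chosen with earlier results of these data known. Non-members are named as the 3 genes most like a member, by Pearson r of log2(CPM + 1) less the tissue mean among genes of at least 1 CPM, or where a result turns on them.

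Alternatives were DESeq2 size factors, no filter on low counts, DESeq2 1.42.0, edgeR's exact test, a joint fit, the replicate number as a block, and each sample left out. Same-numbered control samples correlated (over genes of at least 10 CPM) above 0.1 at all 3 numbers between heart and muscle (0.236 to 0.521) and between muscle and tongue (0.147 to 0.405), and not in the other pairs. Tables and figures used Python 3.11.15, pandas 2.3.3, numpy 2.4.6, scipy 1.17.1 and matplotlib 3.10.9.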

Additional observations from a re-analysis of the deposited data

Results flagged for a closer look

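*Rnaseh2b* lay on opposite sides of its controls in 2 tissues. After SN-011, all 3 stomach samples lay below the stomach controls (log2 fold change -1.74) and all 3 tongue samples lay above the tongue controls (log2 fold change 0.40). The difference between the tissues was tested in the joint fit after these values had been seen, and was -2.18 on the log2 scale (SE 0.52, edgeR adjusted p 0.0491). Of 27 other settings, 27 gave the same direction and 6 an adjusted p under 0.05. No other member lay without overlap on opposite sides in 2 tissues. Groups of 3 samples are too small to test single samples as outliers.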

How the results depend on the processing

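Over 432 values of a gene, tissue and alternative for SN-011 against control, 407 kept both direction and side of the threshold, 11 newly passed it and 14 changed sign, and the cause was not tested. Without the filter on low counts, 1888, 1368, 110 and 18 genes passed (heart, stomach, muscle and tongue, as in each list here, against 137, 0, 2 and 0), with DESeq2 1361, 2389, 880 and 418, with edgeR's exact test 918, 1835, 479 and 253, and with the joint fit 1, 2738, 474 and 4. DESeq2 size factors gave 1 in muscle. Of the 9 members, 2 passed in the heart without the filter, and in the stomach 1 without it, 2 with DESeq2, 1 with the exact test and 1 with the joint fit. With the replicate number as a block, 242, 181, 0 and 0 genes and 0 members passed, and *Adar* in the stomach (0.032) and *Pld4* in the tongue (0.014) turned above 0. Same-numbered samples correlated at -0.454 to 0.304 within tissues, so they share only a number there. Leaving out 1 sample gave 1 (without SN-011 replicate 2) to 787 genes (without control replicate 2) in the heart, 0 to 64 (without control replicate 1) in the stomach, for the muscle 0 to 1103 (without SN-011 replicate 2), and 0 to 2135 genes and 0 to 4 members (without control replicate 1) in the tongue. The log2 fold changes that then changed sign ranged from -0.14 to 0.093 for *Rnaseh2b* in the heart, from -0.35 to 0.24 for *Adar*, -0.40 to 0.18 for *Rnaseh2a*, -0.70 to 0.22 for *Rnaseh2c* and -0.013 to 0.58 for *Pld4* in the stomach, from -0.14 to 0.090 for *Samhd1* and -0.51 to 0.14 for *Pld4* in the muscle, and from -0.10 to 0.12 for *Rnaseh2c* and -0.30 to 0.36 for *Pld4* in the tongue. The test of unequal effects among tissues gave 94 to 1051 genes and 0 to 1 member, the 1 being without muscle or stomach SN-011 replicate 2. Between tissues, leaving out 1 control number gave 4712 to 7821 genes and 2 to 4 members for heart against stomach, 3091 to 6417 and 3 to 5 for heart against muscle, 2296 to 5667 and 0 to 2 for heart against tongue, 6727 to 9934 and 4 to 6 for stomach against muscle, 3723 to 7005 and 0 to 4 for stomach against tongue, and 3758 to 7909 and 4 to 7 for muscle against tongue, with fewest genes each time without number 2. The log2 differences that changed sign, first tissue over second, ranged for heart and stomach from -0.012 to 0.41 (*Adar*), for heart and muscle from -0.11 to 0.065 (*Rnaseh2a*, 0.0083 without the filter), for heart and tongue from -0.84 to 0.54 (*Dnase1l3*) and -0.32 to 0.21 (*Pld3*), for stomach and muscle from -0.0084 to 0.84 (*Rnaseh2a*) and -0.74 to 0.26 (*Rnaseh2c*), for stomach and tongue from -0.45 to 0.63 (*Rnaseh2c*) and -0.34 to 0.11 (*Dnase2a*), and for muscle and tongue from -0.023 to 0.37 (*Rnaseh2c*).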
